A study of Saccharomyces cerevisiae with 15 samples.

Results

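The genes that encode the protein parts of the spliceosome were followed in *Saccharomyces cerevisiae* cells that lack a subunit of THSC/TREX-2, the complex that couples transcription to mRNA export at the nuclear pore. A gene was taken when its symbol began with PRP, CWC, SNU, LSM, SMD, SMX, SLU or MUD followed by a number, or was SNT309 or SMB1. This rule uses no measured value, and it found 56 genes, each with 1 probe set, among the 5449 genes of the array. Of the 56 genes, 5 lie on chromosome XVI (*PRP4*, *PRP46*, *SNT309*, *SMX3* and *CWC27*), which holds 424 of the genes on the array. *LSM12* is included by its name although its protein is not a spliceosome subunit, and the Lsm1 protein belongs to a cytoplasmic ring that acts in mRNA decay.

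Total RNA from cells in mid-log growth in YPD was hybridised to Affymetrix yeast genome arrays, 3 arrays for each of 5 strains. The wild types BY4741 and BY4742 and the mutants *sac3Δ* (sac3::KanMX), *thp1Δ* (thp1::KanMX) and *sus1Δ* (sus1::KanMX) all carried his3∆1, leu2∆0 and ura3∆0. BY4741 and *sac3Δ* also carried met15∆0, and BY4742, *thp1Δ* and *sus1Δ* also carried lys2∆0. Each mutant was 1 strain of a deletion collection, and the comparisons follow the backgrounds: *sac3Δ* against BY4741, and *thp1Δ* and *sus1Δ* against the same 3 arrays of BY4742. Replicates are labelled biological, but no source used here says that they were grown as separate cultures. The p-values therefore rest on the spread among these arrays, which may be technical.

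The spliceosome removes introns from pre-mRNA. The U1 snRNP, a particle of RNA and proteins, recognises the 5′ splice site, the U2 snRNP binds the branch point, and the U4/U6.U5 tri-snRNP then joins. Helicases exchange the base pairing of these RNAs, the complex around Prp19 stabilises the active form, and late factors complete both chemical steps and release the mRNA. Rings of Sm proteins (on U1, U2, U4 and U5) and Lsm proteins (on U6) hold the particles together. Few budding yeast genes have introns, but those that do include many of the most highly transcribed ones, among them most genes for ribosomal proteins.

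Values are dChip intensities in arbitrary units, compared on the log2 scale with limma and given as log2 fold change ± SE (n = 3 arrays per strain). A gene was removed from a comparison when at least 50% of its 6 arrays read under 600 units. It was called when its adjusted p was under 0.05, its fold change at least 1.5 and the difference between means over 100 units. Array medians ran from 1260.0 to 1460.2 units, and Spearman's rho between arrays of a strain from 0.967 to 0.998. BY4741 replicate 3 stood apart with 862 empty cells, against 0 to 22 in the other arrays. It held all 4 empty cells of the spliceosome genes (*CWC22*, *PRP31*, *PRP45* and *SNU56*), and the fit used the other 2 BY4741 arrays for them. The deleted gene read 15.9 ± 0.79 units in *sac3Δ*, 16.1 ± 3.34 in *thp1Δ* and 21.1 ± 1.91 in *sus1Δ* (SD, n = 3). The labels give mating type a throughout, but *STE3*, a gene of α cells, read 6662 to 9472 units in BY4742, *thp1Δ* and *sus1Δ* and 157 to 564 in BY4741 and *sac3Δ*. By this gene each mutant matched the mating type of its wild type. Means of *STE2*, a gene of a cells, were 10423 units in BY4741 (2 arrays) and 13258 in *sac3Δ*. They were 196 in BY4742, 411 in *sus1Δ* and 1106 in *thp1Δ*. *MFA2*, another such gene, read 157 in BY4742, 270 in *sus1Δ* and 1025 in *thp1Δ*. Values were scaled between arrays, so a change in a transcript's share of the RNA cannot be told apart from a change in RNA per cell.

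In *thp1Δ* cells, 13 spliceosome genes rose and none fell. The largest changes were in *SNT309*, *PRP4*, *CWC27*, *SLU7* and *PRP3*. Of these, *SNT309*, *PRP4* and *CWC27* lie on chromosome XVI, where 70.9% of genes tested were called up. The U1 genes and the branch point and U2 genes gave 1 call each, of 5 and 4 tested. These calls, *PRP39* and *PRP21*, were lost under both scalings given below. Of the 13 tested genes of the Sm and Lsm rings, 8 had a log2 fold change below 0 (44.3% of all genes). Of the 56 genes, 41 passed the filter on low values, and the 13 that rose are 31.7% of these, against 14.9% called up among all 4234 genes tested. No gene was called down by limma (6.16% of all genes). The filter also removes a gene that drops under 600 units in all 3 mutant arrays, as *CWC21* did, so these counts cannot hold such a gene, and without the filter 2 genes were called down. At an adjusted p under 0.05 and any fold, 20 were higher and 10 lower, and the unadjusted p gave the same 20 and 10 (backgrounds at the adjusted p of 36.4% and 25.3%). At the unadjusted p, 1632 of all 4234 genes were higher and 1142 lower. All 3 *thp1Δ* arrays lay above all BY4742 arrays in 22 of the 41 genes and below them in 11 (44.6% and 32.9% of all genes). The median log2 fold change was 0.15, and 0.06 over all genes tested. With each array centred on its median 9 of the 41 rose, without *CWC23*, *PRP21*, *PRP22* and *PRP39*, and with quantile normalisation 8, without *SNU66* as well. Of all 4234 genes, 468 were called up with centring and 471 with quantile normalisation. Under these scalings the share of all calls that were up went from 70.7% to 50.9% and 52.4%. The study named mRNA processing among the functions of genes that rose in these samples, so the direction of this list is not independent evidence.

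In *sac3Δ* cells, 8 of the 44 spliceosome genes tested rose (18.2%, against 8.84% of 4308 genes), and none fell (3.25% of all genes). At any fold, 17 were higher and 5 lower at an adjusted p under 0.05 (27.9% and 16.8% of all genes), and by the unadjusted p 19 and 8 (1421 and 893 of all 4308 genes). All *sac3Δ* arrays lay above all BY4741 arrays in 16 genes and below them in 5 (26.9% and 18.3% of all genes). Centring the arrays or quantile normalisation left 7 called, without *MUD2*, where 265 and 281 of all 4308 genes were called up. The share of all calls that were up went from 73.1% to 51.8% and 55.3%. The median log2 fold change was 0.16, and 0.06 over all genes. Replicate 3 of *sac3Δ* was the lowest of the 3 arrays in all 8 genes called. Their median log2 ratio to wild type was 0.91 and 0.92 in replicates 1 and 2 and 0.60 in replicate 3. Without that replicate 10 genes were called, and 471 of all 4344 genes tested were called up.

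In *sus1Δ* cells no spliceosome gene was called in either direction among 44 tested, against a background over 4304 genes of 3.46% up and 1.39% down. A call by the unadjusted p in place of the adjusted p also gave 0. By limma, 5 genes were higher and 6 lower at an unadjusted p under 0.05, and 4 and 5 at an adjusted p under 0.05, where the backgrounds are 18.1% and 11.3%. At the unadjusted p, 1034 of all 4304 genes were higher and 655 lower. The log2 fold changes lay between -0.46 (*SMD1*) and 0.35 (*PRP3*). All *sus1Δ* arrays lay above all BY4742 arrays in 16 of the 44 genes and below them in 14. Over all 4304 genes, the same held for 1679 and 1155.

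**Figure D1:**
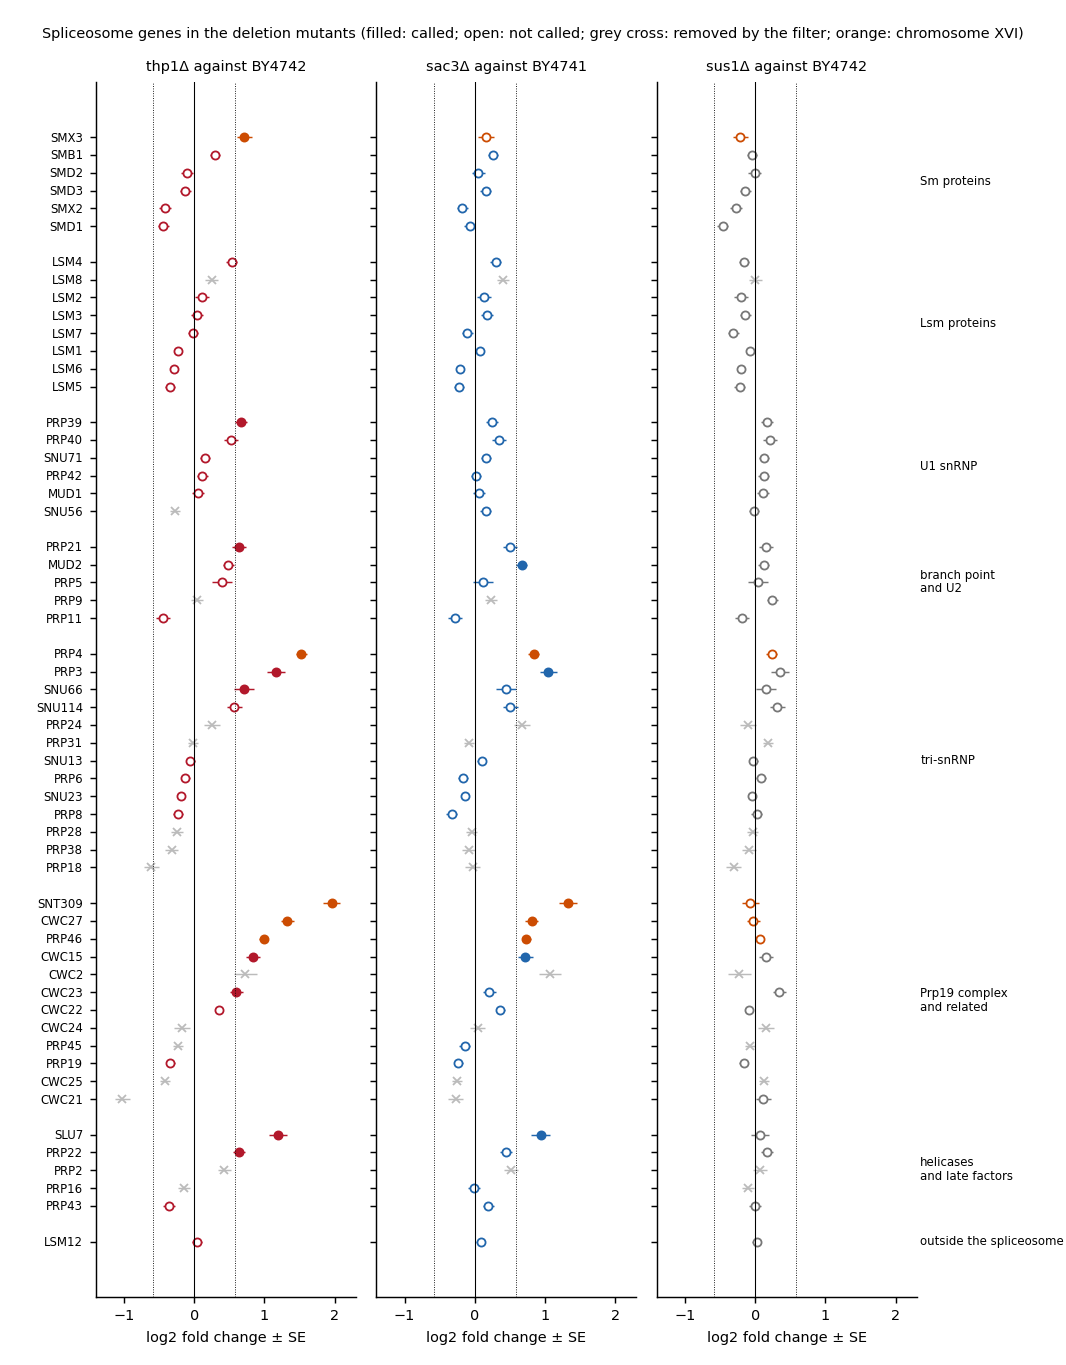
Log2 fold change ± SE (horizontal axis) of all 56 spliceosome genes in the 3 mutants, grouped by role; filled points were called, open points were tested and not called, grey crosses were removed by the filter, orange marks chromosome XVI and the dotted lines a fold of 1.5. The filled points are 13 in *thp1Δ*, 8 in *sac3Δ* and 0 in *sus1Δ*, all to the right of 0.

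Among the genes of the Prp19 complex and of the proteins that join it, 5 of the 7 tested rose in *thp1Δ* and 4 of 8 in *sac3Δ*, where 14.9% and 8.84% of all genes were called up. In each mutant 3 of these (*SNT309*, *CWC27* and *PRP46*) lie on chromosome XVI, where 70.9% and 39.7% of all genes tested were called up. *SNT309*, whose protein holds the Prp19 complex together, read 5364, 5735 and 6282 units in *thp1Δ* against 1519.8, 1524 and 1425 in BY4742. The groups were far apart, with a log2 fold change of 1.96 ± 0.13 (3.88-fold, adjusted p = 6.74e-08). In *sac3Δ* it read 3826, 4619.8 and 2985 against 1440.4, 1663 and 1383 in BY4741, again without overlap, and rose 2.52-fold (1.33 ± 0.13). In *sus1Δ* it read 1426, 1472 and 1359.7, within or below the range of BY4742.

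*CWC27* encodes a cyclophilin-like protein found with late spliceosomes. It read 2184, 2140.4 and 2168 in *thp1Δ* against 862, 899 and 829, a tight rise of 2.51-fold (1.33 ± 0.10). In *sac3Δ* it read 1770.0, 1791 and 1303 against 921, 945 and 881, where replicate 3 lay below the others but above every wild-type array (0.81 ± 0.10). *PRP46* encodes a WD-repeat protein that partners Prp45. It read 1396, 1353 and 1324 against 679, 691 and 685 in *thp1Δ* (0.99 ± 0.06) and 1161, 1187 and 1022 against 701, 646 and 672 in *sac3Δ* (0.74 ± 0.06). No mutant array of either gene overlapped its wild type in these comparisons.

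*CWC15*, for another protein of the active spliceosome, lies on chromosome IV. It read 1241, 1218 and 1267 in *thp1Δ* against 678, 719 and 690.2, and 1333, 1430.2 and 1122 in *sac3Δ* against 691, 936 and 742. The changes were 0.84 ± 0.10 and 0.72 ± 0.10, and BY4741 replicate 2 was the highest of the wild-type arrays without reaching the mutants. *CWC23*, for a J protein that acts in spliceosome disassembly, rose in *thp1Δ* just past the fold limit (0.60 ± 0.10, 1.52-fold) and gave 0.21 ± 0.10 in *sac3Δ* and 0.34 ± 0.10 in *sus1Δ*. The core gene *PRP19* itself went the other way, with -0.34 ± 0.06 in *thp1Δ* (adjusted p = 4.91e-04) and -0.23 ± 0.06 in *sac3Δ* (adjusted p = 0.00953), both short of the fold limit. *CWC22*, for a factor that prepares the first chemical step, gave 0.35 ± 0.06 and 0.36 ± 0.06.

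Low signal kept other genes of this group out of the tests. *CWC2*, for a protein that binds the catalytic RNA, read 861, 936 and 902 in *thp1Δ* against 543, 565 and 521, and 1107, 1334 and 757 in *sac3Δ* against 547, 409 and 539. The wild-type arrays were all under the limit of 600 and all below the mutants, and without the filter *CWC2* would have been called up in both (0.73 ± 0.16 and 1.07 ± 0.16). *CWC21*, for a protein that contacts Prp8, showed the reverse in *thp1Δ*, with 371, 289 and 335 against 676, 674 and 662. Without the filter it would have been called down there (-1.02 ± 0.11), and its value in *sac3Δ* was -0.27 ± 0.11. *CWC24*, *CWC25* and *PRP45* (tested in *sac3Δ* only) ranged from -0.42 to 0.04 in these mutants.

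In the tri-snRNP, 3 of the 8 genes tested rose in *thp1Δ* and 2 of 8 in *sac3Δ* (14.9% and 8.84% of all genes), 1 of them in each mutant, *PRP4*, being on chromosome XVI. The genes of the U4/U6 proteins that bind each other, *PRP4* and *PRP3*, rose in both mutants. *PRP4* read 1926, 1902 and 1931 in *thp1Δ* against 654, 679 and 671, which is 2.87-fold (1.52 ± 0.08), with little spread. In *sac3Δ* it read 1229, 1201 and 1200.3 against 622, 624 and 797 (0.84 ± 0.08), the highest wild-type value being that of BY4741 replicate 3. *PRP3*, on chromosome IV, read 1623, 1802 and 1808 in *thp1Δ* against 764, 809.9 and 761 (1.16 ± 0.13), and 1671, 1876 and 1192 in *sac3Δ* against 708, 754 and 788 (1.05 ± 0.13). All mutant arrays lay above all wild-type arrays, and *sac3Δ* replicate 3 was the lowest.

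*SNU66*, for a protein of the tri-snRNP, read 1159, 1398 and 1224 in *thp1Δ* against 843, 732 and 730.4 (0.71 ± 0.14). Its *sac3Δ* arrays, at 1285, 1519 and 948, overlapped those of BY4741, at 1023, 898 and 805 (0.44 ± 0.14). *SNU114*, for the GTPase of U5, stayed under the fold limit in all mutants, with 0.57 ± 0.11, 0.51 ± 0.11 and 0.32 ± 0.11 in *thp1Δ*, *sac3Δ* and *sus1Δ* (adjusted p = 5.64e-04, 0.00222 and 0.0436). *PRP8*, for the protein at the core of the spliceosome, was slightly lower in *thp1Δ* and *sac3Δ* (-0.23 ± 0.07 and -0.33 ± 0.07, adjusted p = 0.0166 and 0.00283). *PRP6*, *SNU13* and *SNU23* lay between -0.19 and 0.10 in these mutants. *SNU13* encodes a protein shared with the particles that modify ribosomal RNA.

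Of the 5 tri-snRNP genes removed by the filter, *PRP18*, for a factor of the second step, read 228, 229 and 186 in *thp1Δ* against 326, 328 and 324 (-0.61 ± 0.11) and would have been called down without the filter. *PRP24*, for the protein that pairs U4 with U6, read 603, 734 and 527 in *sac3Δ* against 434, 400.2 and 328 (0.68 ± 0.11) and would have been called up. *PRP28*, *PRP31* and *PRP38* lay between -0.32 and -0.02.

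At the start of the pathway, 1 of 5 tested U1 genes and 1 of 4 branch point and U2 genes rose in *thp1Δ* (14.9% of all genes). In *sac3Δ* 0 of 6 U1 genes and 1 of 4 branch point and U2 genes, *MUD2*, rose (8.84% of all genes). With so few genes these counts are not read as a result about the stage. *PRP39*, a U1 gene, read 2189, 2160.3 and 2062 in *thp1Δ* against 1352, 1399.5 and 1291 (0.67 ± 0.08), and overlapped the wild type in *sac3Δ* (0.24 ± 0.08). *PRP40*, whose U1 protein reaches across to the branch point, gave 0.52 ± 0.10 in *thp1Δ* and 0.35 ± 0.10 in *sac3Δ*, under the fold limit. The U1 genes *SNU71*, *PRP42* and *MUD1* lay between 0.02 and 0.16 in these mutants, and *SNU56*, removed by the filter in *thp1Δ*, gave -0.28 ± 0.07 there and 0.16 ± 0.08 in *sac3Δ*.

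*MUD2* encodes the counterpart of the human U2AF large subunit. It read 1814, 2085 and 1636 in *sac3Δ* against 1222, 1139 and 1110.1 (0.67 ± 0.08, adjusted p = 2.96e-05), and 1522, 1607 and 1662 in *thp1Δ* against 1123, 1187 and 1119, where the arrays did not overlap but the change of 0.48 ± 0.08 was below the fold limit. *PRP21* and *PRP11* encode partners in the same U2 subcomplex and differed in direction. *PRP21* read 1106, 1122 and 1118 in *thp1Δ* against 722, 715 and 706 (0.64 ± 0.10). *PRP11* read 811, 786 and 694 against 1001, 1046 and 1061 (-0.44 ± 0.10, adjusted p = 0.00171). In *sac3Δ* they gave 0.51 ± 0.10 and -0.28 ± 0.10, neither of them called. The third partner, *PRP9*, was removed by the filter in both and gave 0.04 ± 0.08 and 0.23 ± 0.08, and *PRP5*, for the ATPase that lets U2 bind, gave 0.40 ± 0.14 and 0.12 ± 0.14.

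Among the helicases and late factors, *SLU7*, which acts in the choice of the 3′ splice site, rose in both mutants. It read 1496, 1736 and 1772 in *thp1Δ* against 785, 701 and 703 (1.19 ± 0.13, 2.28-fold), and 1511, 1835 and 1180.3 in *sac3Δ* against 754, 853 and 724 (0.94 ± 0.13, 1.91-fold). The *sac3Δ* arrays spread more widely than those of *thp1Δ*, and all mutant arrays were above all wild-type arrays. *PRP22*, for the helicase that releases the mRNA, read 1463, 1649 and 1568 in *thp1Δ* against 996, 1036 and 978 (0.64 ± 0.08) and gave 0.44 ± 0.08 in *sac3Δ*, under the fold limit. *PRP43*, for the helicase that takes the spliceosome apart and also works in ribosome assembly, read 3321, 3339 and 3661 in *thp1Δ*, below all BY4742 arrays at 4397, 4368 and 4441 (-0.36 ± 0.08, adjusted p = 0.00198), and gave 0.19 ± 0.08 in *sac3Δ*. *PRP2*, removed by the filter, gave 0.43 ± 0.10 and 0.52 ± 0.10, and *PRP16*, tested in *sac3Δ* only, gave -0.15 ± 0.09 and -0.02 ± 0.09.

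**Figure D2:**
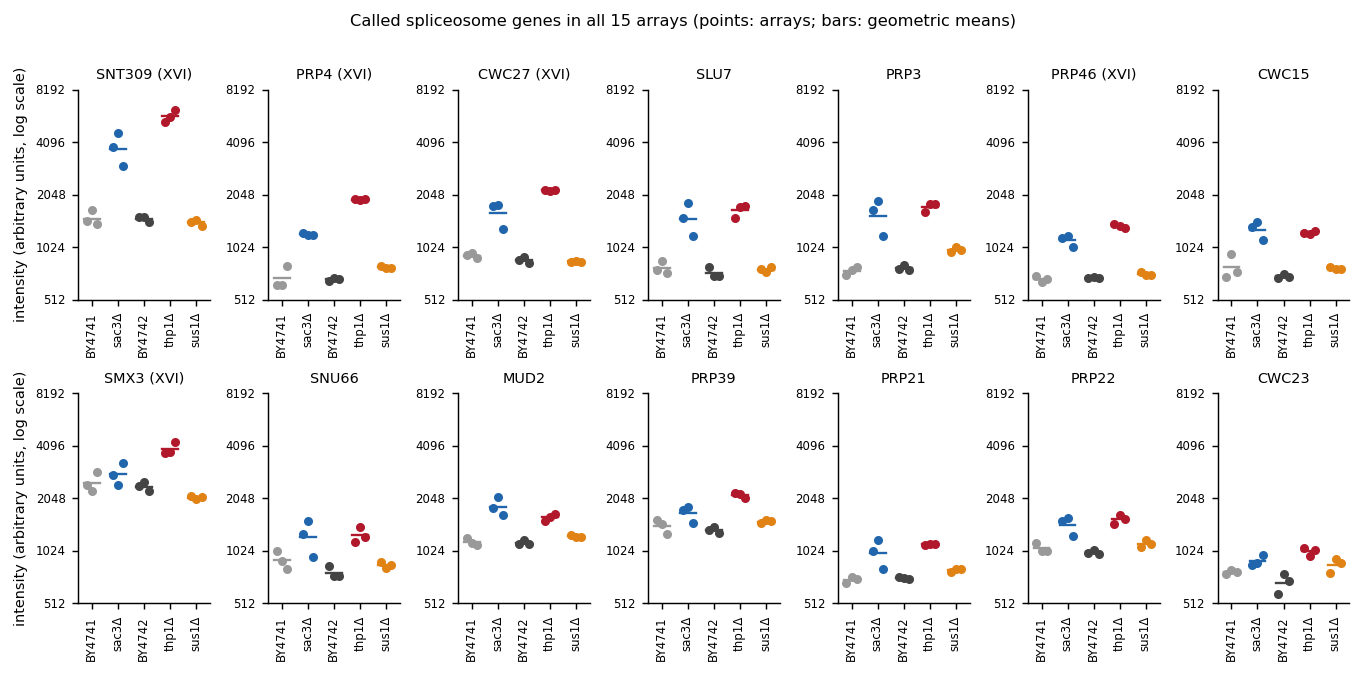
Intensity in arbitrary units on a log2-spaced axis of the 14 spliceosome genes called in *thp1Δ* or *sac3Δ*, in all 15 arrays (points are arrays, bars are geometric means per strain). For *SNT309* the *sus1Δ* points lie at 1359.7 to 1472, where *thp1Δ* stands at 5364 to 6282. No gene shown was called in *sus1Δ*. For *CWC15*, *CWC23*, *PRP21*, *PRP22*, *PRP3*, *PRP39*, *PRP4*, *PRP46* and *MUD2*, every *sus1Δ* point lies above every BY4742 point. For *SMX3* every *sus1Δ* point lies below them, and for the rest the points overlap.

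All 14 genes had wild-type values over 600 in every array, except *CWC23* at 583 in BY4742 replicate 1, so none of them passed the filter through its mutant arrays. A sign of RNA quality, the 3′ signal of the control gene *SRB4* over its 5′ signal, was higher in the strains where spliceosome genes rose, at 12.5 ± 5.95 in *thp1Δ* against 4.40 ± 0.197 in BY4742 and at 10.4 ± 1.77 in *sac3Δ* against 6.51 ± 0.468 in BY4741 (SD, n = 3). It was 4.92 ± 0.294 in *sus1Δ*, and its part in these changes was not tested.

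The Sm and Lsm genes are read as a group of their own. Of the 13 tested in each mutant, only *SMX3* (the Sm protein F, on chromosome XVI) was called, in *thp1Δ*, where it read 3715, 3772 and 4312 against 2405, 2533 and 2251 (0.71 ± 0.11). In *sac3Δ* it read 2781, 2459 and 3268 against 2461, 2245 and 2891, overlapping the wild type (0.16 ± 0.11, adjusted p = 0.241). *LSM4* read 2733, 2768 and 3237 in *thp1Δ* against 2020.0, 2074 and 1936, above the wild type in every array but below the fold limit (0.53 ± 0.08, adjusted p = 5.91e-05). *LSM4* also gave the only adjusted p under 0.05 among the spliceosome genes between the wild types, being lower in BY4742 than in BY4741 (-0.36 ± 0.08, adjusted p = 0.0205, where 1.82% of all genes were lower). The Sm genes *SMD1* and *SMX2* (the Sm protein G) were lower in *thp1Δ* at -0.44 ± 0.08 and -0.42 ± 0.08, and *LSM5*, *LSM6* and *LSM1* at -0.35 ± 0.07, -0.28 ± 0.05 and -0.23 ± 0.05, each with an adjusted p under 0.05. *SMB1* was higher in *thp1Δ* (0.30 ± 0.08, adjusted p = 0.00427) and in *sac3Δ* (0.26 ± 0.08, adjusted p = 0.0135). Its arrays did not overlap the wild type there, but the changes were under the fold limit. *LSM8*, removed by the filter in every mutant, gave 0.25 ± 0.09 in *thp1Δ*, 0.40 ± 0.09 in *sac3Δ* and 0.00 ± 0.09 in *sus1Δ*. In all, 8 of the 13 ring genes lay below 0 in *thp1Δ* and 5 in *sac3Δ* (44.3% and 42.7% of all genes), and 7 in *sac3Δ* once arrays were centred. In *thp1Δ* 7.69% of the ring genes and 42.9% of the other 28 genes tested were called up, against 14.9% of all genes. Ring genes are short, and of the 599 tested genes no longer than the longest of them, 72 were called up in *thp1Δ*. Without the members on chromosome XVI no ring gene was called in *thp1Δ*. Of the other 24 genes 8 were (33.3%), against 10.0% of all genes off that chromosome. Of these 8, only *CWC15*, *PRP3* and *SLU7* stayed called with quantile normalisation, and *SNU66* as well with centring. The ring genes were set apart with earlier results of these data known. The difference between ring genes and the others was not tested.

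In *sus1Δ* all 13 tested Sm and Lsm genes had a log2 fold change below 0, with a median of -0.20, whereas 43.9% of all genes tested were below 0. In 11 of the 13, every *sus1Δ* array lay below every BY4742 array (26.8% of all genes), and 5 passed an adjusted p under 0.05, none of them by 1.5-fold. *SMD1* was the lowest, at 768, 693 and 746 units against 1066, 948 and 1032 (-0.46 ± 0.08, adjusted p = 9.20e-04). *LSM7* read 2070.4, 2008 and 1868 against 2549, 2331 and 2503 (-0.31 ± 0.08, adjusted p = 0.00916), and *LSM6* 2088, 2112 and 2162 against 2527, 2406 and 2427 (-0.21 ± 0.05, adjusted p = 0.00744). *SMX2* gave -0.28 ± 0.08 and *LSM5* -0.22 ± 0.07 (adjusted p = 0.0231 and 0.0381). The remaining 8 genes lay between -0.21 and -0.01 and did not pass. *SME1*, a further Sm gene, falls outside the naming rule and is not among the 13. It gave -0.36 ± 0.13 in *sus1Δ* (adjusted p = 0.0598), -0.35 ± 0.13 in *thp1Δ* (adjusted p = 0.0338) and 0.20 ± 0.13 in *sac3Δ* (adjusted p = 0.226). All Sm and Lsm genes are short, with at most 591 bases from start to end in the annotation. Among the 604 tested genes of that length or less, 290 lay below 0 and 200 had all *sus1Δ* arrays below all BY4742 arrays, with a median of 0.01. Without BY4742 replicate 2 or without *sus1Δ* replicate 3, 12 of the 13 genes were below 0.

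**Figure D3:**
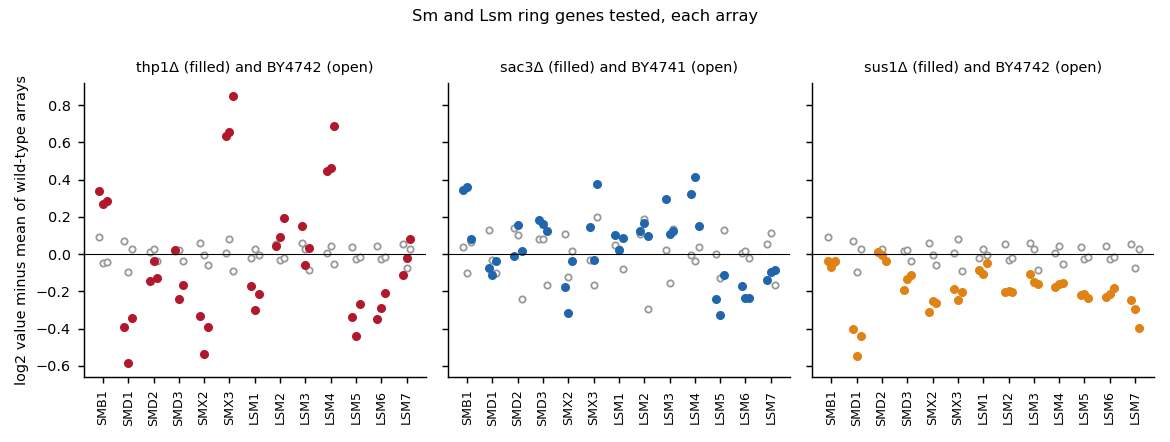
Log2 value of each array minus the mean of the wild-type arrays (vertical axis) for the 13 Sm and Lsm genes tested, with the mutant filled and its wild type open. In *sus1Δ* nearly all filled points lie below 0, *SMD1* lowest, while in *thp1Δ* *SMX3* and *LSM4* lie above 0.

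The 5 spliceosome genes of chromosome XVI lie on a chromosome whose genes were higher as a whole in *thp1Δ* and *sac3Δ*. Of all genes tested on chromosome XVI, 70.9% were called up in *thp1Δ* and 39.7% in *sac3Δ*, with medians of 0.86 and 0.51, against 10.0% and 6.20% on the other chromosomes. The medians of the 15 other chromosomes ran from -0.06 to 0.07 in *thp1Δ* and from -0.06 to 0.07 in *sac3Δ*. The excess was alike in the 3 arrays of a strain (0.83 to 0.87 in *thp1Δ*, 0.50 to 0.52 in *sac3Δ*), and in *sus1Δ* the chromosome XVI median was 0.04. All 5 of them rose in *thp1Δ*, and all but *SMX3* rose in *sac3Δ*. Relative to the chromosome's median in *thp1Δ*, *SNT309* stood 1.10 higher, *PRP4* 0.67, *CWC27* 0.47 and *PRP46* 0.13, and *SMX3* stood at -0.14. In *sac3Δ* the same differences were 0.82, 0.33, 0.30 and 0.23, and -0.35 for *SMX3*.

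When chromosome XVI was shifted in every array to the level of the other chromosomes, *SNT309* (1.10 ± 0.13, adjusted p = 1.42e-05) and *PRP4* (0.67 ± 0.08, adjusted p = 2.07e-05) were still called in *thp1Δ* and *SNT309* in *sac3Δ* (0.82 ± 0.13, adjusted p = 3.24e-04). The calls of *CWC27*, *PRP46* and *SMX3* in *thp1Δ* and of *PRP4*, *CWC27* and *PRP46* in *sac3Δ* ended. Off chromosome XVI, 8 of 36 spliceosome genes rose in *thp1Δ* (22.2%, against the 10.0% above) and 4 of 39 in *sac3Δ* (10.3%, against 6.20%). These counts depended on the scaling. With quantile normalisation only *CWC15*, *PRP3* and *SLU7* of them stayed called in each mutant. With centring the same genes stayed called, and *SNU66* as well in *thp1Δ*. The share of all genes off the chromosome was not taken under these scalings.

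The genes next to the called ones were read against the shares of their chromosomes. In *thp1Δ*, 8 of the 10 protein-coding neighbours of the chromosome XVI members were called up (median 1.01), where 70.9% of the chromosome's genes were, among them *HDA3* beside *PRP4* (1.71 ± 0.20) and *MRPL51* beside *SNT309* (1.35 ± 0.07), while *RPL11A*, on the other side of *SNT309*, gave 0.10 ± 0.19. Of the 11 tested neighbours of the called genes on other chromosomes, 0 were called up by limma (10.0% of genes there) and 1 down, which was *TRS31* beside *PRP3* (-0.87 ± 0.10), and their median was 0.02. In *sac3Δ* 3 of 8 neighbours on chromosome XVI were called up (39.7% of its genes), and 1 of 6 elsewhere (6.20%), *NBP2* beside *CWC15* (0.60 ± 0.08). In *thp1Δ*, *PRE1* beside *PRP22* gave 0.54 ± 0.07 (adjusted p = 3.42e-05), under the fold limit, and *NBP2*, removed there by the filter, gave 0.82 ± 0.08. Also removed by the filter in *thp1Δ* were *PRM6* beside *PRP39* (3.515 ± 0.311) and *ECM25* beside *PRP21* (-0.269 ± 0.078). These neighbours were named after their values were seen.

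**Figure D4:**
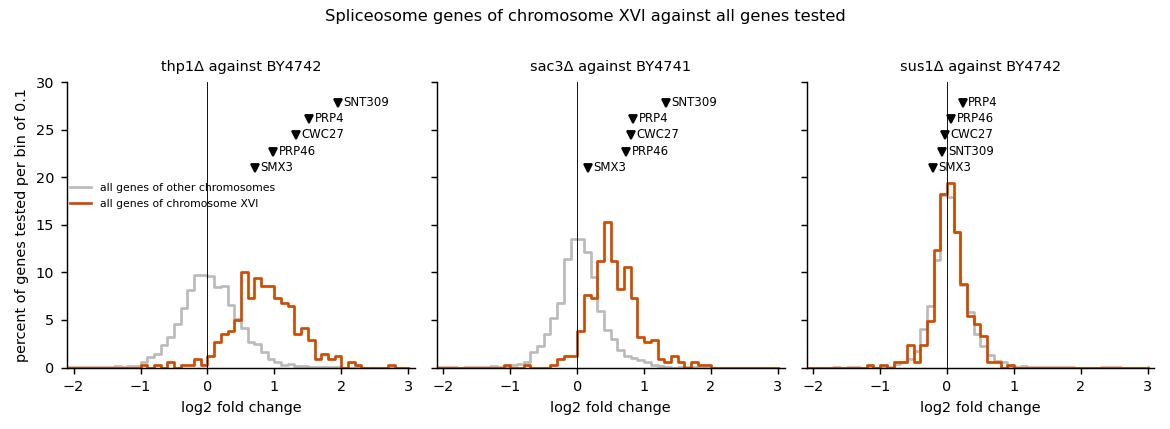
Share of genes tested (percent per bin of 0.1, vertical axis) by log2 fold change (horizontal axis) for chromosome XVI and for the other chromosomes in the 3 mutants, with triangles for the 5 spliceosome genes of chromosome XVI, whose height carries no value. The chromosome XVI medians are 0.86 in *thp1Δ*, 0.51 in *sac3Δ* and 0.04 in *sus1Δ*, and *SNT309* lies at 1.96, 1.33 and -0.07.

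The changes in *thp1Δ* and *sac3Δ*, which share no control arrays, were set side by side over the 41 genes tested in both. Pearson's r across genes was 0.92 and Spearman's rho 0.89 (0.90 and 0.86 over the 36 genes off chromosome XVI), and 0.74 and 0.70 over all 4183 genes tested in both. Genes are not independent replicates, and the strains share the chromosome XVI excess and the high *SRB4* ratio. The 7 genes called in both (*SNT309*, *PRP4*, *PRP3*, *SLU7*, *CWC27*, *PRP46* and *CWC15*) are 53.8% of the calls in *thp1Δ* and 87.5% of those in *sac3Δ*, where the shares over all genes are 42.4% and 75.4%. The test of the difference between both responses called 2 of 41 genes, both higher in *thp1Δ* (3.23% of all genes were called up and 3.18% down). These were *PRP4* (0.68 ± 0.11, adjusted p = 0.00259) and *SNT309* (0.63 ± 0.18, adjusted p = 0.0275), and neither was called once chromosome XVI had been shifted. Leaving out a single array moved this count between 1 and 3, while 106 to 240 of all genes were called up and 106 to 244 down. *PRP4* lost its call only without BY4741 replicate 3, while *SNT309* lost it without BY4741 replicate 2, *sac3Δ* replicate 1 or 3, *thp1Δ* replicate 2 or 3 or any BY4742 array. The count was 1 without BY4741 replicate 3, BY4742 replicate 1 or 3 or *thp1Δ* replicate 2, and 3 without BY4741 replicate 1, *sac3Δ* replicate 2 or 3 or *thp1Δ* replicate 1. *PRP43*, lower in *thp1Δ* and not in *sac3Δ*, differed by -0.55 ± 0.11 (adjusted p = 0.00740), under the fold limit. Of the 6 genes called in *thp1Δ* alone and of *MUD2*, called in *sac3Δ* alone, none was called in this test, while *SMX3* (0.55 ± 0.15) and *PRP39* (0.43 ± 0.12) had an adjusted p of 0.0250 and 0.0254.

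**Figure D5:**
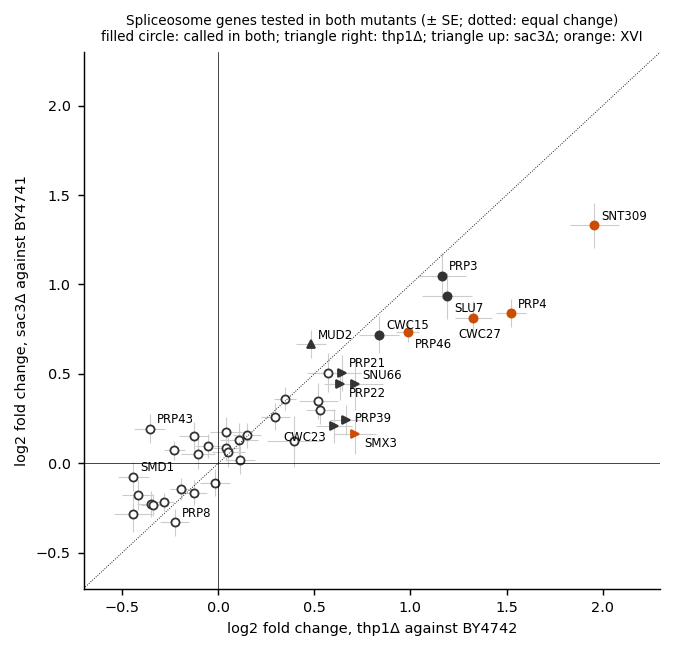
Log2 fold change ± SE in *thp1Δ* (horizontal axis) and *sac3Δ* (vertical axis) of the 41 spliceosome genes tested in both; filled circles were called in both mutants, triangles in 1 of them, open circles in neither, and orange marks chromosome XVI. *SNT309* (1.96 and 1.33) and *PRP4* (1.52 and 0.84) lie farthest below the dotted line of equal change.

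*sus1Δ* was compared with *thp1Δ* directly, since both had been set against the same BY4742 arrays. In this contrast 9 of 42 spliceosome genes were higher in *thp1Δ* (21.4%, against 11.7% of 4287 genes) and none lower (5.76% of all genes). They were the 5 genes of chromosome XVI with *SLU7*, *PRP3*, *LSM4* and *CWC15*. For the 13 genes called in *thp1Δ*, the 95% intervals of the change in *sus1Δ* reached from 0.734-fold to 1.54-fold, and in 12 of them the upper end was below 1.5-fold, the exception being *PRP3* (1.06-fold to 1.54-fold). For *SNT309* the interval was 0.788-fold to 1.15-fold. Between the wild types, 0 of 44 spliceosome genes were called in BY4742 against BY4741 by limma, and 0 also by the unadjusted p (background 0.909% up and 0.186% down over 4291 genes), with 1 higher and 3 lower at an unadjusted p under 0.05. Of all 4291 genes, 398 were higher and 477 lower at that unadjusted p.

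Splicing genes outside the naming rule were read from a list of 41. In *thp1Δ*, 6 of the 27 tested rose (22.2%, against 14.9% of all genes) and 2 fell (7.41%, near the 6.16% of all genes), and in *sac3Δ* 6 of 27 rose (22.2%, against 8.84%). Of the 6 in *thp1Δ*, 4 lie on chromosome XVI, where 70.9% of genes were called up: *RDS3* (1.29 ± 0.08) and *LEA1* (1.06 ± 0.07), both for U2 proteins, *CBC2* (0.92 ± 0.05), for the small subunit of the cap-binding complex, and *DIB1*, for a U5 protein. The 2 that fell were *YSF3* (-0.83 ± 0.11), for a U2 protein, and *SAD1* (-0.73 ± 0.08), which acts in tri-snRNP assembly. In *sac3Δ*, *LEA1* (0.99 ± 0.07), *RDS3* (0.77 ± 0.08), *CUS1* (0.74 ± 0.11), for another U2 protein, and *CBC2* (0.69 ± 0.05) rose most. Of the 6 called there, 3 (*LEA1*, *RDS3* and *CBC2*) lie on chromosome XVI, where 39.7% of genes tested were called up. In *sus1Δ* 0 of 27 were called by limma (8 higher and 3 lower at an unadjusted p under 0.05, where 1034 and 655 of all 4304 genes were).

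In length from start to end in the annotation, the 13 spliceosome genes that rose in *thp1Δ* had a median of 1149 bases, the 28 tested and not called 588, and all genes tested 1272. In *sac3Δ* the medians were 1252.5, 847.5 and 1278 bases. The part of length, like that of the *SRB4* ratio, was not tested.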

How the data were processed

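The authors hybridised labelled total RNA to Affymetrix yeast arrays and deposited intensity values in a linear scale, made with dChip by invariant-set normalisation and a perfect-match model, with outlying cells left empty. Which dChip version was used is not stated in these sources. Probe sets were paired with genes through the platform annotation, and the lists and members were chosen with earlier results of these data known. The deposited intensities were taken to log2 and fitted with limma 3.58.1 (R 4.3.3) over the 15 arrays together, 1 mean per strain, with Benjamini-Hochberg adjustment over all genes tested and an empty cell left out of its gene's fit. Of several probe sets of a gene, that with the highest mean was kept. The number of arrays limits the precision. Array values are given for the called genes, up to the 12 with the largest change in each comparison, and for all members on chromosome XVI, and up to 4 other splicing genes are named in each comparison. Further members were named after their values were seen. In simulated data for *thp1Δ* against BY4742 (5449 genes), 50 of 50 genes raised 2-fold and 50 of 50 raised 4-fold were called. Of those lowered, 48 of 50 were called at 2-fold but 29 of 50 at 4-fold, since the filter removed the other 21. The changed genes were drawn only from genes whose mean was more than 2-fold above 600 units. That the filter removed 0 of the genes lowered 2-fold largely follows from this choice. This recovery therefore does not cover genes that a 2-fold fall takes under 600 units in all mutant arrays. Nor does it cover rises of genes at such lower levels. Spliceosome genes such as *PRP4*, *PRP46* and *CWC15*, with BY4742 means of 668, 685 and 696 units, are of that kind. For them a 2-fold fall could not have been called. Alternatives changed the scaling, the filter, the probe set, the spread, the chromosome XVI level, the replicate block and the arrays left in. Gene lengths are those of the R64 annotation.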

Additional observations from a re-analysis of the deposited data

Results flagged for a closer look

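Differences between 2 mutants under a test of the difference itself concern 9 genes between *thp1Δ* and *sus1Δ*, all higher in *thp1Δ*. On the log2 scale they were 2.027 for *SNT309*, 1.353 for *CWC27*, 1.291 for *PRP4*, 1.128 for *SLU7*, 0.925 for *SMX3*, 0.921 for *PRP46*, 0.813 for *PRP3*, 0.694 for *LSM4* and 0.686 for *CWC15*. For *LSM4* neither mutant was called against BY4742: *thp1Δ* lay above it and *sus1Δ* below it, at 1779.8, 1798 and 1806 units. Between the response to *thp1Δ* and that to *sac3Δ*, the differences called were 0.683 for *PRP4* and 0.626 for *SNT309*, both on chromosome XVI, where the median change was 0.86 in *thp1Δ* and 0.51 in *sac3Δ*. The part of the chromosome's level is read from the shifted values: *SNT309* alone of the 5 genes on chromosome XVI was still called between *thp1Δ* and *sus1Δ* (1.17 ± 0.13), and neither gene was called between the responses to *thp1Δ* and *sac3Δ*.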

How the results depend on the processing

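In *thp1Δ* 13 genes were called up in the reported fit, 8 with quantile normalisation, 9 with arrays centred, 14 without the filter and 10 with chromosome XVI shifted, and 2 were called down without the filter (*CWC21* and *PRP18*). Of all 4234 genes, 631 were called up in the reported fit, 471 with quantile normalisation, 468 with centring and 425 with the shift. Without the filter 832 of 5449 were called up and 414 down. The median of the list, 0.15, became 0.038 by quantile normalisation, 0.028 by centring, 0.048 without the filter and 0.113 with chromosome XVI shifted. *CWC23*, *PRP21*, *PRP22* and *PRP39* were lost under both scalings and *SNU66* under quantile normalisation, where the median of all genes moved by -0.10, and by -0.12 under centring. *SMX3* turned to -0.142 with chromosome XVI shifted. In *sac3Δ* the median became 0.062 and 0.037 under these scalings, and 5 genes were called with chromosome XVI shifted (271 of all 4308 genes were called up). The methods' criteria called 6 in *sac3Δ*, without *PRP3* and *SLU7* (277 of all 4308 genes were called up). In *sus1Δ* the median was -0.038 by quantile normalisation, -0.070 by centring and -0.008 without the filter. With chromosome XVI shifted, 5 genes were called between *thp1Δ* and *sus1Δ* and 0 between the responses to *thp1Δ* and *sac3Δ*. Over all genes, 274 of 4287 were then called higher in *thp1Δ* than in *sus1Δ* and 279 lower. Between the responses 82 of 4183 were called up and 138 down. Beyond the shifts that the scalings and the chromosome XVI level make by construction, the cause was not tested.

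Leaving out each array gave 13 to 15 genes up and 0 to 1 down in *thp1Δ* (the 1 down being *CWC21*, when any *thp1Δ* array was left out), a median of the list of 0.086 to 0.163 there, 7 to 10 up in *sac3Δ*, a median of -0.013 to 0.012 in *sus1Δ*, and 1 to 3 genes between the responses. The counts over all genes moved as well. They were 616 to 757 up and 255 to 347 down in *thp1Δ*, and 335 to 486 up in *sac3Δ*. Between the responses they were 106 to 240 up and 106 to 244 down. *CWC23* was not called without BY4742 replicate 1 or *thp1Δ* replicate 1, nor *MUD2* without *sac3Δ* replicate 2. With a replicate block 13 genes were called in *thp1Δ*, 8 in *sac3Δ*, 0 in *sus1Δ*, 9 directly and 2 between the responses, so the pairing changed no call of a spliceosome gene. Over all genes the block called 631 up in *thp1Δ*, 387 in *sac3Δ*, 148 in *sus1Δ* and 500 directly. Between the responses it called 134 up and 136 down. Same-numbered arrays correlated from -0.23 to -0.07 in *thp1Δ*, from 0.07 to 0.36 in *sac3Δ* and from 0.09 to 0.38 in *sus1Δ*, so not every pair was over 0.1 and the arrays were not treated as paired. In *sac3Δ* and *sus1Δ* replicates 1 and 3 correlated best with their own number and replicate 2 did not, a hint from the data and not from the design. Genes near 600 units are read least surely.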
